A study of Homo sapiens with 6 samples.

Results

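Ribosome biogenesis is the making of ribosomes in the nucleolus, and RNA polymerase I starts it by transcribing the ribosomal DNA into a long precursor RNA. The results below concern 50 named genes of this pathway, taken by gene symbol from a table of 58243 genes. All 50 were found and all 50 had enough counts to be tested, among 18679 tested genes in all. They were read in the order of the pathway: 11 genes of the RNA polymerase I machinery, 5 multifunctional nucleolar proteins, 7 proteins of the small nucleolar ribonucleoproteins (snoRNPs), 13 factors of small subunit assembly and 14 factors of large subunit assembly.

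Total RNA came from cells labelled Hep3B, a line of human hepatocellular carcinoma, grown in DMEM with serum. One group was transfected with si-SNHG17-1, an siRNA (small interfering RNA) that targets SNHG17, and the other with the control siRNA si-NC. SNHG17 is a noncoding transcript whose introns carry small nucleolar RNAs. Each group had 3 libraries, and the labels name only 1 siRNA against SNHG17, so a response to the loss of SNHG17 and a response to this siRNA cannot be told apart. The sources used here give neither the time after transfection nor the siRNA dose. Whether replicates were separate cultures is not in the labels, so the p-values reflect the spread among these 6 libraries, and that spread may be only technical.

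The targeted RNA was lower in the group labelled for it. SNHG17 stood at 22.4, 22.8 and 23.9 CPM with si-NC and 8.03, 8.02 and 8.27 CPM with si-SNHG17-1 (CPM, counts brought to a common library size and scaled by TMM), which is 35.2% of control (log2 fold change −1.51 with an SE of 0.12, edgeR quasi-likelihood test with Benjamini-Hochberg adjusted p = 0.00101). The groups did not overlap, and the exact two-sided permutation test gave p = 0.1, the smallest that 3 libraries against 3 allow. Total counts ranged from 30207055 to 42271168 per library, so that 3 counts corresponded to 0.0710 to 0.0993 CPM, for counting error only. Of 12 markers of hepatocytes and of Hep3B, 10 were under 1 CPM in every library, among them AFP, ALB and APOA1, and TTR and GPC3 had no count in any. The hepatocyte identity on the label was not borne out by these markers.

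In the pathway, the precursor RNA is cut and modified while it is still being made. Box C/D snoRNPs add methyl groups and box H/ACA snoRNPs turn uridines into pseudouridines. A large particle called the small subunit processome folds the part that becomes 18S ribosomal RNA, and other factors assemble the part that becomes 5.8S and 28S ribosomal RNA into the large subunit. Growing and tumour cells need much of this machinery, and the genes for it are known to share promoter sites for basic helix-loop-helix zipper factors such as USF1 and MAX, which bind the E-box CACGTG.

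The promoters of 4 genes that were lower after si-SNHG17-1 are shown because they hold that E-box and because these genes had the smallest adjusted p among the lower genes whose promoter holds it. Each is the window from 250 bases before to 50 bases after a RefSeq gene start in GRCh38.p14, written 5′ to 3′ on the gene's strand, with the E-box in capitals. The E-box begins 31 bases before the start of DDX21 and 237 bases before that of EBNA1BP2. In NOP2 it lies 36 bases after the start, and in GNL3 7 bases after it.
DDX21, chr10:68956397-68956696, plus strand: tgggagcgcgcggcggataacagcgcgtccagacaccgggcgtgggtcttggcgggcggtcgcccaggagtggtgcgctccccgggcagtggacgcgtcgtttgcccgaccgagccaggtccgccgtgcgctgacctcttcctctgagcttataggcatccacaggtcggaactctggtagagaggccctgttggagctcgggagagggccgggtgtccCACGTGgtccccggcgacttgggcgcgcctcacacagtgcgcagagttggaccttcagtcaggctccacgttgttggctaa
NOP2, chr12:6568242-6568541, minus strand: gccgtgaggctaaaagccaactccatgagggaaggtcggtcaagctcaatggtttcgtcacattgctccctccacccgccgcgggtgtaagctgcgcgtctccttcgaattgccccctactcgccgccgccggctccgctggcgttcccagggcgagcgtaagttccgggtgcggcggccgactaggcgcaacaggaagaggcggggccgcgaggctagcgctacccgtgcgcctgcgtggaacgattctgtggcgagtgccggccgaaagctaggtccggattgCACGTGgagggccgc
EBNA1BP2, chr1:43172521-43172820, minus strand: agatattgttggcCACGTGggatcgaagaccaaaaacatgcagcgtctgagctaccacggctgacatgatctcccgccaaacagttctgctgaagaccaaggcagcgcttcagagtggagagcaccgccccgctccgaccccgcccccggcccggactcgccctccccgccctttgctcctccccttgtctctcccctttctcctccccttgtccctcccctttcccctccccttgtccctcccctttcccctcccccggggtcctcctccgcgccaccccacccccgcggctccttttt
GNL3, chr3:52685782-52686081, plus strand: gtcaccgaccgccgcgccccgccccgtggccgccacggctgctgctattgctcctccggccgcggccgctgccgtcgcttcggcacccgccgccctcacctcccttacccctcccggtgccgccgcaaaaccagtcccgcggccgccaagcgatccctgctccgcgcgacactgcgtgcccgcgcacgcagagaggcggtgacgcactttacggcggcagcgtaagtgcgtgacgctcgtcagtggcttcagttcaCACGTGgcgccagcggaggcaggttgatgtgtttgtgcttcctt

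RefSeq promoter windows were matched for 43 of the 50 genes, with 55 windows in all. The unmatched genes were POLR1E, NOLC1, NOP58, RRP12, BOP1, RRS1 and RRP1B. CACGTG, which reads the same on both strands, was in a window of 19 of the 43 genes (44.2%), against 12.6% of 10670 tested protein-coding genes. Counted by window, 20 of 55 held it (36.4%), against 7.26% of the 35116 windows in the table and 9.27% of those of tested protein-coding genes. The E-box was unevenly placed along the pathway: none of 10 polymerase I genes held it, against 2 of 4 nucleolar proteins, 3 of 6 snoRNP proteins, 8 of 12 small subunit factors and 6 of 11 large subunit factors. After si-SNHG17-1, 7 of the 19 genes with an E-box were lower (36.8%), as were 6 of the 24 without (25%). Over all tested protein-coding genes the shares lower were 6.46% with it and 6.45% without it.

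Other promoter words were counted on both strands too. The ETS word CCGGAAGT was in 12 of the 43 genes (27.9%), against 9.38% of tested protein-coding genes. Of their windows 23.6% held the ETS word, against 4.14% of all and 6.88% of those of tested protein-coding genes. POLR1B, POLR1C, RRN3, TAF1A and TAF1C of the polymerase I machinery were among its holders. The NRF1 word GCATGCGC was in DKC1 and NOB1 only, or 4.65% of the genes against 6.24% of tested protein-coding genes, and 3.64% of windows against 3.05% of all windows and 4.56% of those of tested protein-coding genes. Both DKC1 and NOB1 were lower, while over tested protein-coding genes 5.56% of holders and 6.51% of the others were. The word TATAAA was in UTP20 and LTV1 only, or 4.65% of the genes against 8.70% of tested protein-coding genes. By window this was 3.64%, against 11.5% of all and 6.52% of those of tested protein-coding genes. A match says only that these letters stand in the window.

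After si-SNHG17-1, 17 of the 50 genes were lower and 0 were higher at an adjusted p under 0.05. Over all 18679 genes tested, 5.21% were lower and 5.25% were higher, so that the 34% of lower members stood above the background share and the 0 higher members below it. The 50 genes were chosen with earlier results of these data known, and the part of that choice in the difference was not tested. The members are well expressed, and among 10210 protein-coding genes within their range of mean level, 7.98% were lower and 7.43% higher. The lower genes stood at 55.5% to 79.7% of control, and none of them reached a change of 2-fold. The median log2 fold change over all 50 was −0.34, against −0.00 over all tested genes. DESeq2 called 22 members lower and 0 higher, beside 8.29% lower and 8.49% higher over all genes it tested. At an unadjusted p under 0.05 edgeR counted 28 members lower and 1 higher. Of all 18679 genes tested, 2551 were lower and 2446 higher by that measure. Of the 10210 protein-coding genes within the members' range of level, 1928 were lower and 1659 higher.

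The direction was shared beyond the called genes. Of the 50, 44 had a fold change below 0, and 30 were lower in every si-SNHG17-1 library than in any si-NC library, which was true of 17.3% of all tested genes. Only TAF1A was higher in every si-SNHG17-1 library, against 16.4% of all tested genes. The median deviation of the 50 genes from their si-NC mean was −0.27, −0.33 and −0.27 (log2) in si-SNHG17-1 libraries 1, 2 and 3, so no single treated library carried it. Because these are bulk samples, fewer cells expressing a gene and less RNA per cell cannot be told apart.

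**Figure D1:**
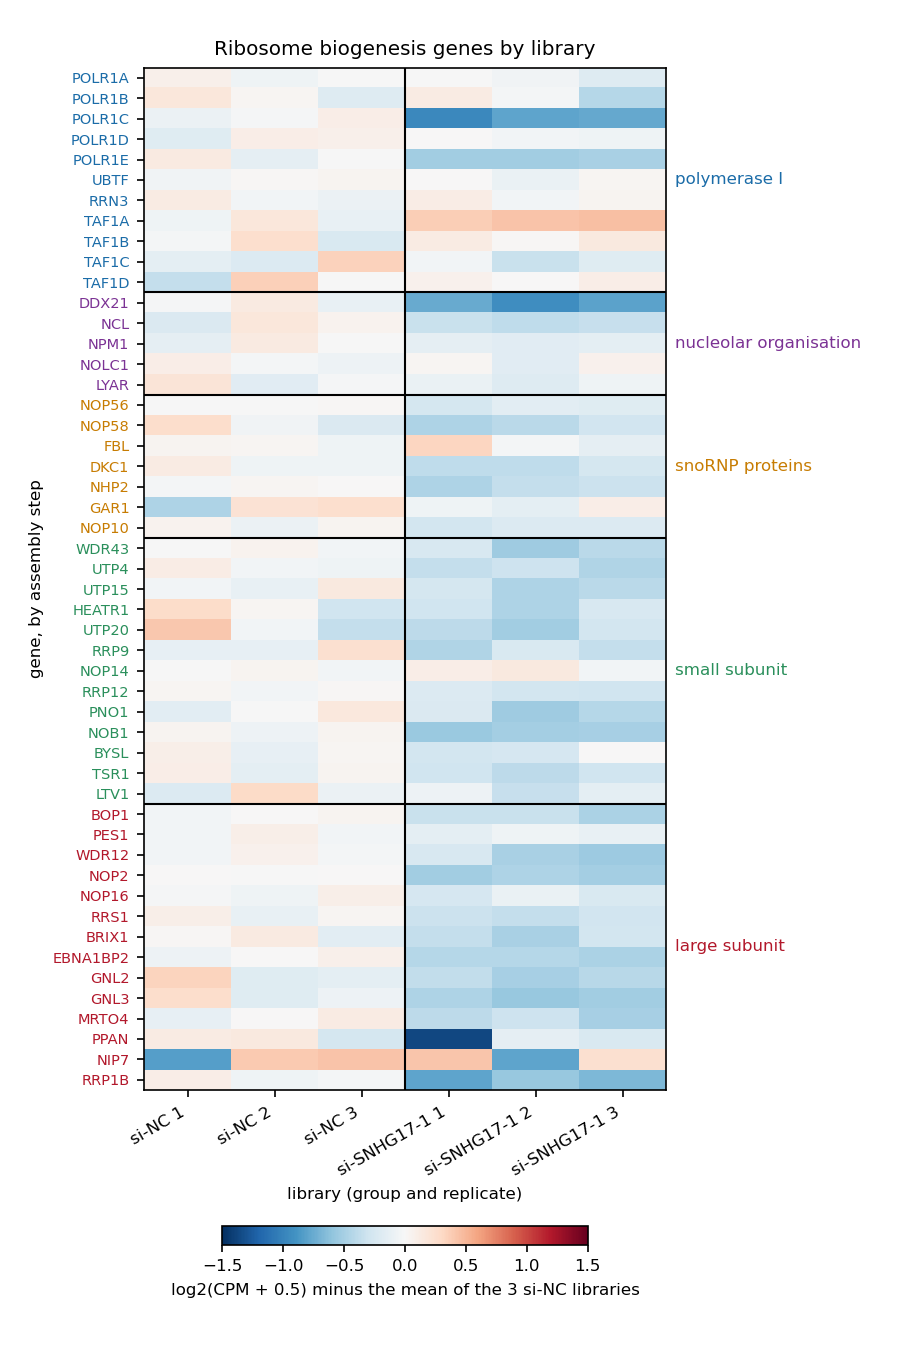
Level of each of the 50 genes in each library, as log2(CPM + 0.5) minus the mean of the 3 si-NC libraries, with genes in rows by assembly step and libraries in columns. Blue fills most of the si-SNHG17-1 columns for the small and large subunit factors and is sparse among the polymerase I genes, where POLR1C and POLR1E stand out; PPAN and NIP7 show single libraries far from the others of their group.

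The share of lower genes differed along the pathway, although the difference between steps was not tested. It was 2 of 11 for polymerase I (median log2 fold change −0.04), 1 of 5 for the nucleolar proteins (−0.15) and 2 of 7 for the snoRNP proteins (−0.23). It was 4 of 13 for small subunit assembly (−0.36) and 8 of 14 for large subunit assembly (−0.41). Every large subunit factor had a fold change below 0, and 12 of the 14 were lower in every si-SNHG17-1 library than in any si-NC library. Over all tested genes, 5.21% were called lower, 50.2% had a fold change below 0 and 17.3% were lower in every si-SNHG17-1 library. In the smaller steps, shares rest on few genes. The genes that stayed called whichever 1 library was left out numbered 1, 1, 0, 1 and 2 in these steps, in the same order. Of all 18679 genes tested, 498 stayed called in this way, lower or higher.

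**Figure D2:**
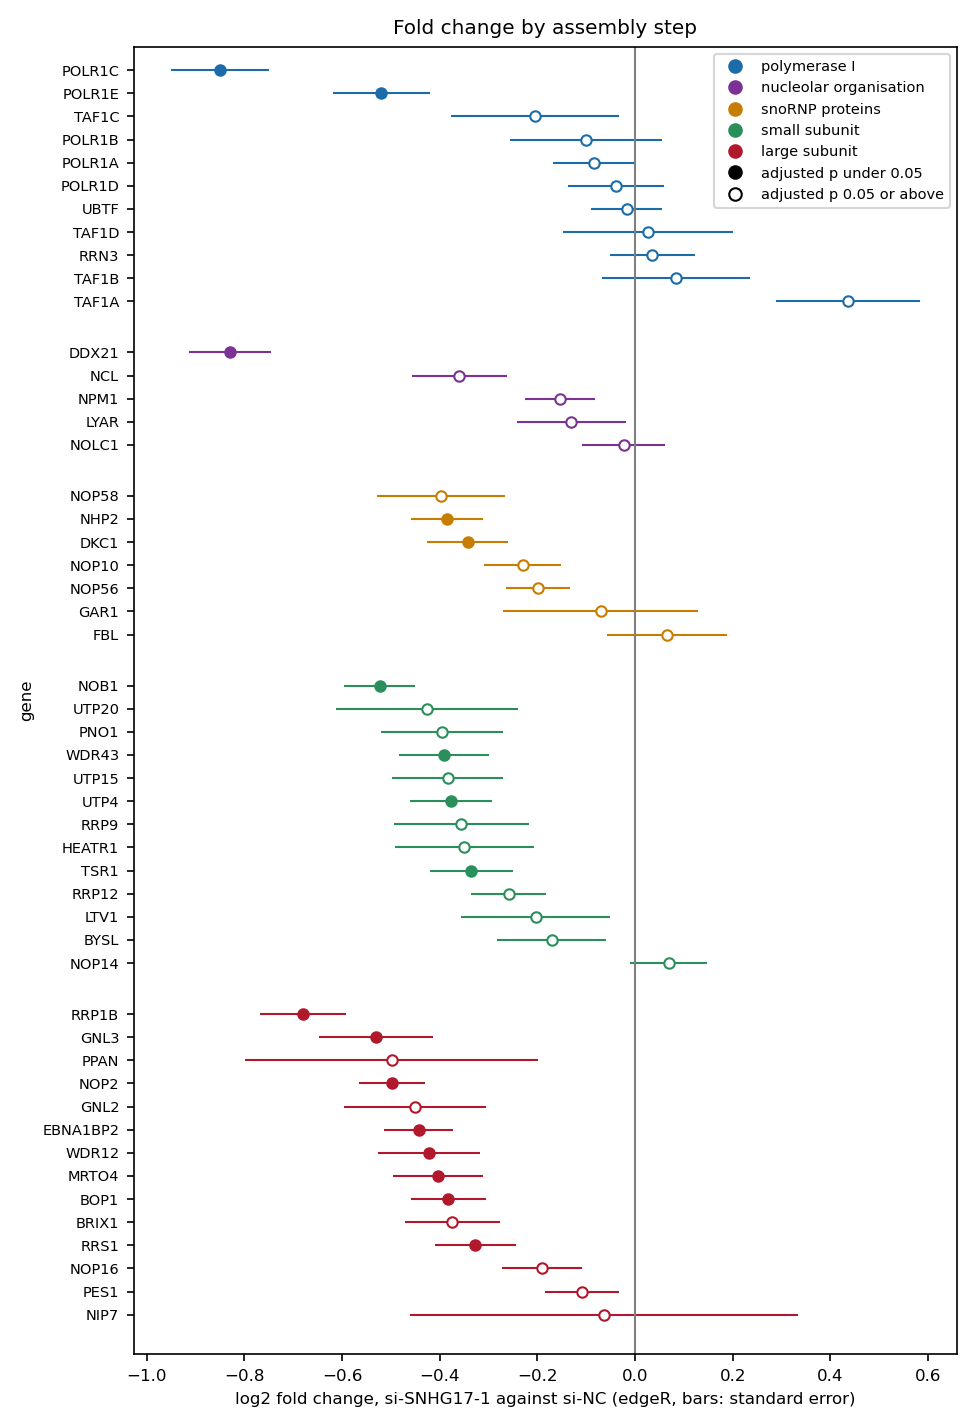
Log2 fold change of each of the 50 genes, si-SNHG17-1 against si-NC, from edgeR with bars of 1 standard error, grouped and coloured by assembly step. Filled points have an adjusted p under 0.05: 17 of them lie left of 0 and none lies right of it, and the medians move from −0.04 for polymerase I to −0.41 for the large subunit.

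Among the core subunits of RNA polymerase I, POLR1C and POLR1E fell and the others did not pass the test. POLR1C (ENSG00000171453.17, chr6:43509702-43529585, GRCh38) encodes a subunit that RNA polymerase I shares with RNA polymerase III, where it pairs with the product of POLR1D. Its level was 61.3, 64.3 and 69.6 CPM with si-NC and 33.1, 37.2 and 37.9 CPM with si-SNHG17-1. All treated libraries lay far below all controls, and the mean fell to 55.5% of control, the lowest ratio of the 50 genes (log2 fold change −0.85 with an SE of 0.10, edgeR adjusted p = 0.00387). POLR1E, whose product helps the enzyme at initiation, stood at 67.2, 55.5 and 60.9 CPM with si-NC and 42.3, 42.5 and 43.3 CPM with si-SNHG17-1. The treated libraries lay close together and below every control (log2 fold change −0.52 with an SE of 0.10, edgeR adjusted p = 0.0194).

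The partner subunit did not pass the test. POLR1D stood at 70.8, 86.4 and 85.0 CPM with si-NC and 80.8, 78.0 and 76.9 CPM with si-SNHG17-1, so the groups overlapped (log2 fold change −0.04 with an SE of 0.10, edgeR adjusted p = 0.846). POLR1A, the largest subunit, which carries part of the catalytic centre, had 109.6, 99.1 and 103.6 CPM with si-NC and 103.5, 100.4 and 90.8 CPM with si-SNHG17-1 (log2 fold change −0.08, adjusted p = 0.591, edgeR). POLR1B, the second largest subunit, overlapped between groups as well (log2 fold change −0.10, SE 0.16). The call for POLR1C held in each of the 6 leave-one-out fits, in which 1 library was dropped, with adjusted p up to 0.0275. That for POLR1E was lost without any 1 of the si-SNHG17-1 libraries or without si-NC 3, reaching 0.0782 without si-SNHG17-1 1.

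The exons of POLR1C overlap those of other genes on the opposite strand, and no source used here says whether the counting used strand. Of these, XPO5, which encodes a nuclear export receptor, was also lower (log2 fold change −0.39 with an SE of 0.09, edgeR adjusted p = 0.0319), as was the antisense gene AL355802.3 (−1.91, SE 0.38, adjusted p = 0.0231). YIPF3, which also overlaps it, had a log2 fold change of −0.06. Mean levels with si-NC were 232.5 CPM for XPO5 and 2.15 CPM for AL355802.3, against 65.1 CPM for POLR1C. The exons of XPO5 and POLR1C overlap by 348 bases. The part of shared reads in the result was not tested.

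None of the 6 initiation factors passed the test. UBTF, which coats the ribosomal DNA and opens it for transcription, stood at 146, 153 and 155 CPM with si-NC and 152, 142 and 155 CPM with si-SNHG17-1 (log2 fold change −0.02, SE 0.07). RRN3, which recruits the polymerase to the promoter, gave 0.04 (SE 0.09), although 3 pseudogenes carry its name and could share its reads. TAF1A, TAF1B, TAF1C and TAF1D form selectivity factor 1 with the TATA-binding protein. TAF1A had the smallest adjusted p of the initiation factors and stood at 7.27, 8.62 and 6.99 CPM with si-NC and 9.94, 10.4 and 10.6 CPM with si-SNHG17-1. It was the member with the highest fold change, with every treated library above every control (log2 fold change 0.44 with an SE of 0.15, edgeR adjusted p = 0.107). TAF1B, TAF1C and TAF1D had log2 fold changes of 0.08, −0.21 and 0.03, with groups that overlapped.

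All 5 multifunctional nucleolar proteins had a fold change below 0, and DDX21 was the only gene called lower. DDX21 (ENSG00000165732.12, chr10:68956128-68985073) encodes a DEAD-box RNA helicase that works both in polymerase I transcription and in the processing of its product. It stood at 665, 739 and 624 CPM with si-NC and 401, 354 and 386 CPM with si-SNHG17-1, and the highest treated library was far below the lowest control. The means were 676 ± 58.2 CPM with si-NC and 380.2 ± 24.2 CPM with si-SNHG17-1 (SD, n = 3), or 56.3% of control. Its adjusted p was the smallest of the 50 genes (log2 fold change −0.83 with an SE of 0.08, edgeR adjusted p = 0.00244) and held in each of the 6 leave-one-out fits, up to 0.0186.

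NCL, which encodes nucleolin, an abundant RNA-binding protein of the nucleolus, lay just above the threshold. Its level was 565.6, 738.1 and 680.2 CPM with si-NC and 522, 505 and 519 CPM with si-SNHG17-1, lower in all treated libraries (log2 fold change −0.36 with an SE of 0.10, edgeR adjusted p = 0.0566), and DESeq2 called it lower. NPM1, which encodes the histone chaperone nucleophosmin, stood at 1209, 1451 and 1319 CPM with si-NC and 1208, 1171 and 1197 CPM with si-SNHG17-1 (log2 fold change −0.15, adjusted p = 0.220, edgeR). The groups nearly touched, and 44 annotated pseudogenes of NPM1 could share its reads. NOLC1, a chaperone of snoRNPs, and LYAR, a nucleolar zinc-finger protein, had log2 fold changes of −0.02 and −0.13 with overlapping groups.

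Among the snoRNP proteins, the box H/ACA side held both called genes. DKC1 encodes dyskerin, the pseudouridine synthase itself, and stood at 165, 145 and 145 CPM with si-NC and 116, 116 and 125 CPM with si-SNHG17-1 (log2 fold change −0.34 with an SE of 0.08, edgeR adjusted p = 0.0425). NHP2, a core protein of the same particle, stood at 131, 136 and 135 CPM with si-NC and 96.9, 104 and 107 CPM with si-SNHG17-1 (log2 fold change −0.38 with an SE of 0.07, edgeR adjusted p = 0.0194). For both genes every treated library lay below every control, at 78.8% and 76.6% of control. NOP10, the third core protein, was also separated between groups but did not pass the test (97.3, 88.0 and 96.4 CPM against 77.2, 81.6 and 81.5 CPM, log2 fold change −0.23, edgeR adjusted p = 0.110). GAR1 overlapped, with si-NC 1 at 21.3 CPM and the other controls at 34.5 and 35.6 CPM (log2 fold change −0.07). Neither call was stable to a lost library: DKC1 lost it without any 1 of the 6 libraries and NHP2 without any but si-NC 1, with adjusted p up to 0.144 and 0.0982, both without si-SNHG17-1 1.

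On the box C/D side none of 3 genes passed. FBL, which encodes the methyltransferase fibrillarin, stood at 126, 125 and 117 CPM with si-NC and 153.4, 120.1 and 111.8 CPM with si-SNHG17-1 and did not separate (log2 fold change 0.07, SE 0.12). Its scaffold partners were lower in all treated libraries: NOP58 stood at 115, 92.5 and 82.1 CPM with si-NC and 69.2, 72.4 and 78.5 CPM with si-SNHG17-1 (log2 fold change −0.40 with an SE of 0.13, edgeR adjusted p = 0.102). NOP56 stood at 193, 192 and 195 CPM with si-NC and 161, 173 and 171 CPM with si-SNHG17-1 (log2 fold change −0.20, adjusted p = 0.102, edgeR). DESeq2 called NOP58 lower.

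The small subunit processome was represented by 7 genes, of which WDR43 and UTP4 were called lower. Both encode members of the complex that binds the nascent precursor first and supports its transcription. WDR43 stood at 167, 174 and 162 CPM with si-NC and 142, 115 and 126 CPM with si-SNHG17-1, with si-SNHG17-1 1 nearest to the controls (log2 fold change −0.39 with an SE of 0.09, edgeR adjusted p = 0.0380). UTP4 stood at 138, 124 and 122 CPM with si-NC and 99.5, 103 and 92.7 CPM with si-SNHG17-1, clear of the controls in all libraries (log2 fold change −0.38 with an SE of 0.08, edgeR adjusted p = 0.0321). UTP15, from the same complex, was lower in all treated libraries too, at 41.5, 39.5 and 47.4 CPM against 35.4, 31.0 and 32.1 CPM, but missed the threshold (log2 fold change −0.38, edgeR adjusted p = 0.0743). The calls of WDR43 and UTP4 were each lost without any 1 of the 6 libraries, with adjusted p up to 0.136 and 0.113, both without si-SNHG17-1 3.

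The other processome genes had wider spreads. HEATR1 and UTP20, very large scaffold proteins, ranged over 243, 205 and 164 and over 95.3, 69.7 and 56.0 CPM in si-NC 1, 2 and 3. Their treated libraries were at 163.6, 146.4 and 170.1 and at 54.8, 50.2 and 59.5 CPM. For both genes the only overlap was that si-SNHG17-1 3 lay above si-NC 3 (log2 fold changes −0.35 and −0.43, SE 0.14 and 0.19). RRP9, the U3 snoRNA-binding protein, was lower in all treated libraries (log2 fold change −0.36, edgeR adjusted p = 0.148). NOP14 was the only small subunit factor with a value above 0 (0.07, SE 0.08).

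Of the 6 later small subunit factors, NOB1 and TSR1 were called lower. NOB1 (ENSG00000141101.12, chr16:69741867-69754940) encodes the nuclease that makes the last cut of 18S ribosomal RNA in the cytoplasm. It stood at 145, 134 and 146 CPM with si-NC and 96.0, 99.2 and 99.9 CPM with si-SNHG17-1, so the treated libraries lay together, well below the lowest control. It fell to 69.6% of control (log2 fold change −0.52 with an SE of 0.07, edgeR adjusted p = 0.00658) and passed in each of the 6 leave-one-out fits, up to 0.0450. TSR1, a GTPase-like protein that keeps the immature subunit from starting translation, stood at 228, 192 and 218 CPM with si-NC and 173, 161 and 172 CPM with si-SNHG17-1 (log2 fold change −0.34 with an SE of 0.08, edgeR adjusted p = 0.0462). Its call held only without si-NC 2 among the 6 fits, and reached 0.144 without si-SNHG17-1 2.

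PNO1, which binds next to the site that NOB1 cuts, was at 57.0, 63.6 and 71.2 CPM with si-NC and 54.9, 43.7 and 47.3 CPM with si-SNHG17-1 and did not pass (log2 fold change −0.40 with an SE of 0.12, edgeR adjusted p = 0.0880). RRP12, an export factor, was separated between groups at 83.6% of control (edgeR adjusted p = 0.0724). BYSL and LTV1 overlapped between groups, with log2 fold changes of −0.17 and −0.20. Both called genes share exons with another gene on the opposite strand that was lower as well. For NOB1 this was AC092115.3 (log2 fold change −0.60 with an SE of 0.12, edgeR adjusted p = 0.0228), at a mean of 34.8 CPM with si-NC. For TSR1 it was SRR, the serine racemase gene (−0.38, SE 0.09, edgeR adjusted p = 0.0398), at a mean of 61.9 CPM with si-NC. The part of shared reads in these results was not tested.

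**Figure D3:**
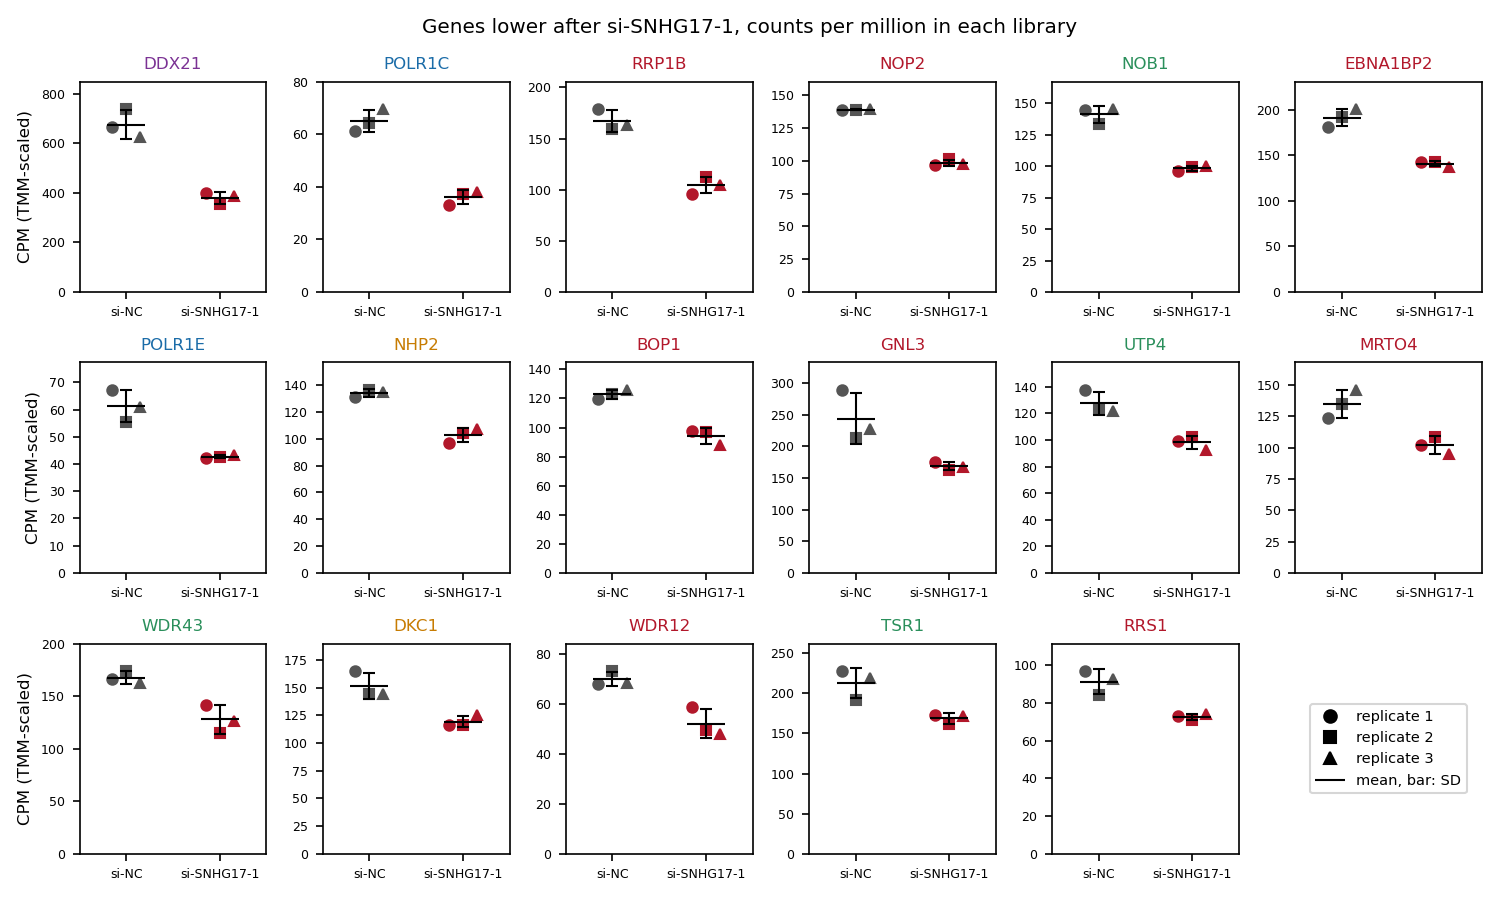
TMM-scaled CPM of the 17 lower genes in each library, ordered by adjusted p, with 1 panel per gene, points for libraries, a line for the mean and bars of 1 SD (n = 3), each axis starting at 0. In every panel all si-SNHG17-1 points lie below all si-NC points, with the widest relative gaps for DDX21, POLR1C and RRP1B.

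Large subunit assembly had the most lower genes, 8 of 14, and its leading gene was RRP1B. RRP1B (ENSG00000160208.12, chr21:43659548-43696079) encodes a nucleolar protein of early large subunit particles. It stood at 179, 159 and 163 CPM with si-NC and 96.1, 112 and 105 CPM with si-SNHG17-1, with means of 167 ± 10.5 CPM with si-NC and 104 ± 7.91 CPM with si-SNHG17-1 (SD, n = 3). It fell to 62.4% of control (log2 fold change −0.68 with an SE of 0.09, edgeR adjusted p = 0.00516). NOP2 (ENSG00000111641.11, chr12:6556863-6568691) encodes the methyltransferase that modifies a cytosine of 28S ribosomal RNA. Its level was 139.3, 138.8 and 139.7 CPM with si-NC and 96.5, 101.2 and 98.0 CPM with si-SNHG17-1, the tightest controls of the called genes, and it fell to 70.8% of control (log2 fold change −0.50 with an SE of 0.07, edgeR adjusted p = 0.00584). Both passed in each of the 6 leave-one-out fits, with adjusted p up to 0.0311 and 0.0455.

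The PeBoW complex, formed by PES1, BOP1 and WDR12, is needed to cut the spacer between 5.8S and 28S ribosomal RNA. BOP1 stood at 119, 123 and 126 CPM with si-NC and 97.6, 97.1 and 87.9 CPM with si-SNHG17-1 (log2 fold change −0.38 with an SE of 0.08, edgeR adjusted p = 0.0229). WDR12 stood at 68.0, 73.1 and 68.3 CPM with si-NC and 58.9, 49.7 and 47.7 CPM with si-SNHG17-1, with si-SNHG17-1 1 nearest to the controls (log2 fold change −0.42 with an SE of 0.10, edgeR adjusted p = 0.0440). Their partner PES1 stood at 112, 123 and 112 CPM with si-NC and 104, 111 and 107 CPM with si-SNHG17-1, narrowly separated between groups and not called (log2 fold change −0.11 with an SE of 0.08, edgeR adjusted p = 0.416). BOP1 lost the call in every fit with a library left out except that without si-NC 1, and WDR12 lost it in all of them, with adjusted p up to 0.0968 and 0.158, both without si-SNHG17-1 3.

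GNL3 and EBNA1BP2 fell as well. GNL3 encodes nucleostemin, a nucleolar GTP-binding protein abundant in stem and tumour cells, and stood at 289, 213 and 228 CPM with si-NC and 175, 163 and 168 CPM with si-SNHG17-1. Library si-NC 1 was well above the other controls, yet the lowest control was still above every treated library (log2 fold change −0.53 with an SE of 0.12, edgeR adjusted p = 0.0315). Its relative GNL2 showed the same high si-NC 1, at 129, 89.9 and 92.0 CPM with si-NC and 78.9, 71.9 and 76.5 CPM with si-SNHG17-1, and did not pass (log2 fold change −0.45 with an SE of 0.14, edgeR adjusted p = 0.0934). EBNA1BP2, a partner of other large subunit factors in the nucleolus, stood at 182, 192 and 201 CPM with si-NC and 143, 142 and 138 CPM with si-SNHG17-1, with treated libraries close together (log2 fold change −0.44 with an SE of 0.07, edgeR adjusted p = 0.0105). Without any 1 of the si-SNHG17-1 libraries EBNA1BP2 was no longer called, with adjusted p up to 0.0643. GNL3 lost its call without any 1 of the treated libraries or without si-NC 3, with adjusted p up to 0.101.

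MRTO4 and RRS1 completed the called genes. MRTO4, a factor that holds the place of the ribosomal stalk protein on the immature subunit, stood at 124, 135 and 146 CPM with si-NC and 102, 109 and 94.9 CPM with si-SNHG17-1 (log2 fold change −0.40 with an SE of 0.09, edgeR adjusted p = 0.0347). RRS1, which helps to bring in the 5S ribosomal RNA particle, stood at 97.0, 84.4 and 92.8 CPM with si-NC and 72.9, 71.2 and 74.4 CPM with si-SNHG17-1 (log2 fold change −0.33 with an SE of 0.08, edgeR adjusted p = 0.0474). Each kept its call in only 1 of the 6 fits with a library left out, without si-NC 1 for MRTO4 and without si-NC 2 for RRS1, and reached 0.140 and 0.144 in the others.

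The remaining large subunit factors did not pass the test. BRIX1, a binding factor of the precursor, was closest, at 201, 217 and 178 CPM with si-NC and 155, 141 and 163 CPM with si-SNHG17-1 (log2 fold change −0.37 with an SE of 0.10, edgeR adjusted p = 0.0512), and was called by DESeq2 and limma-voom. NOP16 was lower in all treated libraries at 87.6% of control (edgeR adjusted p = 0.191). PPAN and NIP7 had the widest errors of all 50 genes, with SE of 0.30 and 0.40.

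Both of these lie where annotated genes overlap. PPAN stood at 77.7, 78.9 and 59.3 CPM with si-NC and 27.4, 64.7 and 60.7 CPM with si-SNHG17-1, with si-SNHG17-1 1 far below the others. The read-through gene PPAN-P2RY11, which shares exons with it, stood at 4.41, 13.0 and 35.1 CPM with si-NC and at 49.2, 10.8 and 6.58 CPM with si-SNHG17-1, high where PPAN was low. With the counts of both summed, a step chosen after seeing the data, the levels were 82.1, 91.9 and 94.3 CPM against 76.6, 75.5 and 67.3 CPM. The sum had a log2 fold change of −0.29 (SE 0.09, edgeR adjusted p = 0.0926), with no overlap between groups. NIP7, whose exons overlap those of COG8, stood at 22.7, 53.2 and 54.8 CPM with si-NC and 54.2, 23.2 and 47.9 CPM with si-SNHG17-1, so that si-NC 1 and si-SNHG17-1 2 were the low libraries (log2 fold change −0.06 with an SE of 0.40, edgeR adjusted p = 0.942). No direction can be read for NIP7.

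**Figure D4:**
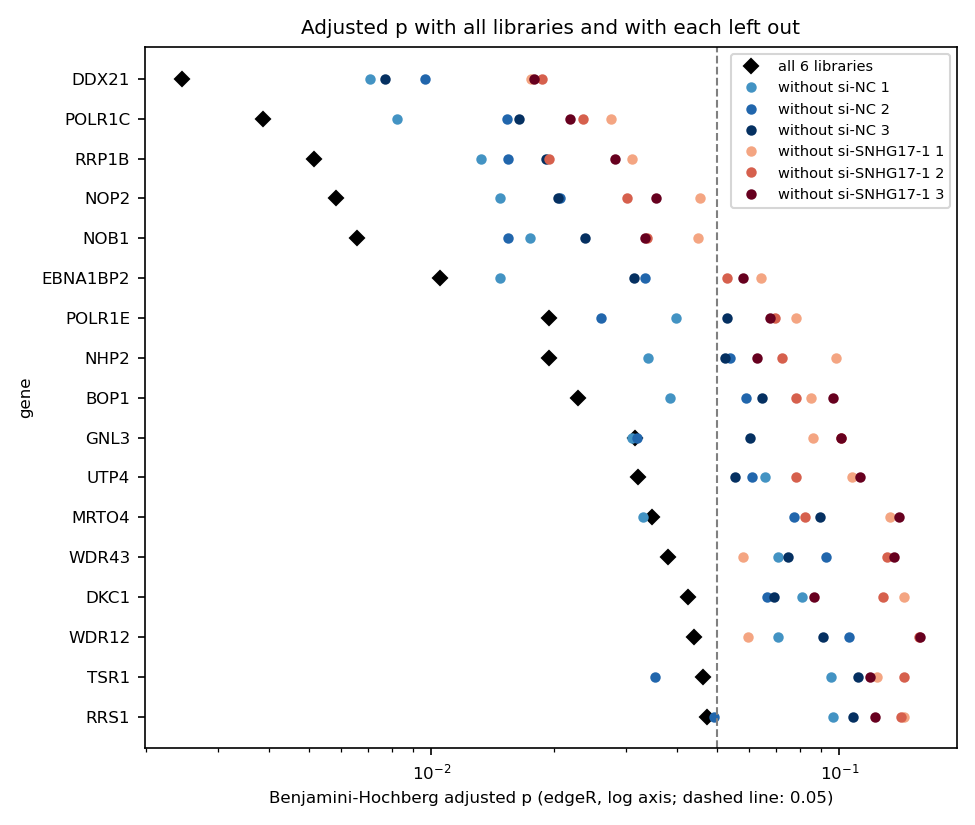
Benjamini-Hochberg adjusted p (edgeR, log axis) of the 17 lower genes with all 6 libraries (diamonds) and with each library left out (circles, blue for si-NC and orange to red for si-SNHG17-1). DDX21, POLR1C, RRP1B, NOP2 and NOB1 stay left of the dashed line at 0.05 throughout, and the other 12 genes cross it in at least 1 fit.

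The number of calls depended on the libraries at hand. It was 12, 10 and 7 without si-NC 1, 2 and 3, and 5 in each fit without a si-SNHG17-1 library. Fits with 5 libraries called fewer genes altogether: over all genes tested, 3.64%, 2.98% and 2.74% were lower without si-NC 1, 2 and 3, and 1.36%, 1.89% and 1.72% without si-SNHG17-1 1, 2 and 3. In these fits 41 to 45 of the 50 fold changes were below 0. The 5 genes called in all 6 fits were POLR1C, DDX21, NOB1, NOP2 and RRP1B, and the 12 others had their largest edgeR adjusted p between 0.0643 and 0.158. By the same measure, 498 of all 18679 genes tested stayed called, lower or higher. Among the 10210 protein-coding genes within the members' range of level, 444 did.

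The wider pathway was read from 140 other ribosome biogenesis genes, all of them tested. Of these 14 were lower (10%) and 4 higher (2.86%), against the background of 5.21% and 5.25%, and their median log2 fold change was −0.16. The counts by step were 0 of 11 lower and 1 higher for polymerase I, 1 of 10 lower for snoRNP assembly, and 5 of 49 lower with 2 higher for the small subunit. They were 7 of 46 lower with 1 higher for the large subunit and 1 of 24 lower for ribosomal RNA trimming. The excess of lower over higher calls was thus smaller than among the 50 genes, and the difference was not tested.

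**Figure D5:**
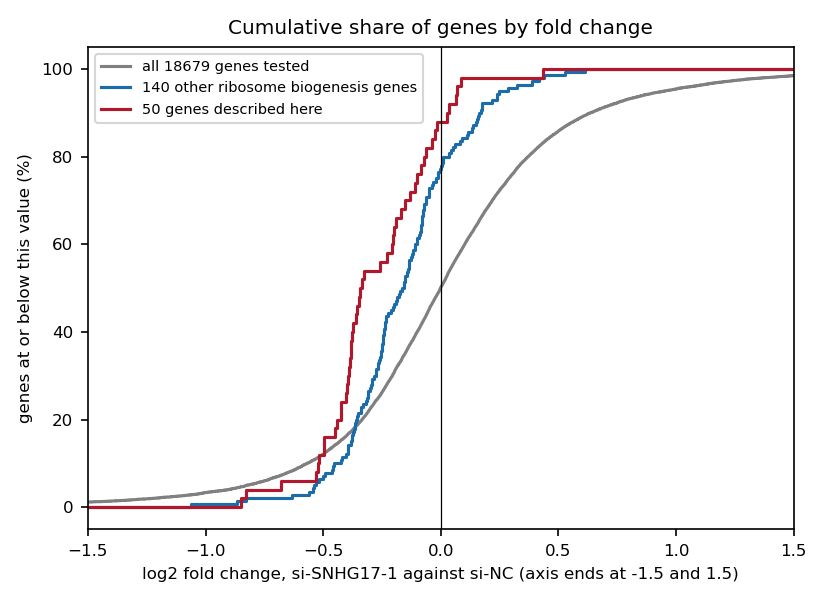
Cumulative share of genes (%) at or below each log2 fold change, si-SNHG17-1 against si-NC, for all 18679 genes tested, the 140 other ribosome biogenesis genes and the 50 genes described here; a few genes lie beyond the axis ends. The curve of the 50 genes reaches 88% at 0 and that of the other 140 reaches 77.1%, against 50.2% for all genes. Both lists are narrower than all genes on each side. All genes had a median level of 16.7 CPM, against 100.2 CPM for the 50, and the curves are not matched for level.

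NOL9 led the lower genes of the wider pathway. It encodes the RNA kinase that works with the nuclease cutting the spacer before 28S ribosomal RNA, and stood at 39.9, 38.9 and 43.3 CPM with si-NC and 20.3, 20.8 and 17.5 CPM with si-SNHG17-1 (log2 fold change −1.06 with an SE of 0.12, edgeR adjusted p = 0.00315). This was 48.0% of control, lower than any of the 50. MAK16, a large subunit factor, fell to 69.9% of control (log2 fold change −0.52 with an SE of 0.09, edgeR adjusted p = 0.0165). RSL1D1, a nucleolar protein with a ribosomal L1 domain, fell to 64.5% (log2 fold change −0.63 with an SE of 0.12, edgeR adjusted p = 0.0176).

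Among processome genes, WDR3 stood at 125.7, 126.4 and 119.6 CPM with si-NC and 81.9, 83.4 and 86.5 CPM with si-SNHG17-1 (log2 fold change −0.56 with an SE of 0.07, edgeR adjusted p = 0.00500). WDR36, another WD-repeat protein of the processome, fell to 56.2% of control, with controls spread from 49.2 to 72.0 CPM (log2 fold change −0.83 with an SE of 0.15, edgeR adjusted p = 0.0176). UTP25 fell to 74.5% of control (log2 fold change −0.43, edgeR adjusted p = 0.0187). RUVBL1, an ATPase of the complex that assembles box C/D snoRNPs, fell to 77.8% (log2 fold change −0.36, edgeR adjusted p = 0.0213). RPP40, a protein of the ribonucleases P and MRP, fell to 70.6% of control (log2 fold change −0.50, edgeR adjusted p = 0.0419).

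The 4 higher genes sat at different steps. TCOF1, which encodes treacle, a partner of polymerase I and UBTF at the ribosomal DNA, rose to 153% of control, at 147.1, 148.5 and 159.6 CPM with si-NC and 224, 239 and 232 CPM with si-SNHG17-1 (log2 fold change 0.61 with an SE of 0.07, edgeR adjusted p = 0.00353). DHX37, the helicase that frees U3 snoRNA from the processome, rose to 144% (log2 fold change 0.53 with an SE of 0.11, edgeR adjusted p = 0.0226). TSR2, a chaperone of a small subunit ribosomal protein, rose to 136% (log2 fold change 0.44, edgeR adjusted p = 0.0223). DDX24, a DEAD-box helicase, rose to 131% (log2 fold change 0.39, edgeR adjusted p = 0.0220). Of these 18 called genes, TCOF1, NOL9 and WDR3 passed in each of the 6 leave-one-out fits. Among the 140 genes, 2 were lower and 1 higher without si-SNHG17-1 1, and the same without si-SNHG17-1 3. Without si-SNHG17-1 2 the counts were 4 and 1. Over all genes tested, the shares lower were 1.36%, 1.89% and 1.72% without si-SNHG17-1 1, 2 and 3. The shares higher were 1.61%, 2.08% and 2.06%. Without si-SNHG17-1 1 or 3 the share lower among the 140 was thus near that of all genes. Without si-NC 1, 2 and 3 the counts were 16 and 3, 6 and 1, and 7 and 3. Over all genes these fits called 3.64%, 2.98% and 2.74% lower and 3.58%, 3.17% and 2.72% higher.

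By level, the 50 genes spanned a wide range. Their mean over all libraries ran from 8.97 CPM for TAF1A to 1259 CPM for NPM1, with a median of 100.2 CPM against 16.7 CPM for all tested genes. Per kilobase of exon in the si-NC libraries, NPM1 was the highest at 346 CPM, followed by NOP10 at 169.5, DDX21 at 135, NCL at 95.4 and NHP2 at 88.8. TAF1A was the lowest at 2.63 CPM per kilobase, with TAF1B at 5.03 and TAF1C at 5.94. The fewest counts behind a value of a called gene were 1164 in a library, so that the spread between libraries, not counting error, set the precision.

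Hosting of snoRNAs did not enter the choice of the 50 genes. Of them 9 hold annotated snoRNA genes within their bounds (18%), against 209 of 13817 tested protein-coding genes (1.51%). These hosts are TAF1D, NCL, NOP56, NOP58, DKC1, WDR43, TSR1, GNL3 and PPAN, and 4 of the 9 were lower, against 13 of the 41 others. Over tested protein-coding genes 33 of the 209 hosts and 849 of the 13608 others were lower. A limit of the counts is that genes can share exons. Exons of 29 of the 50 overlap those of another annotated gene, and 11 of these were lower, against 6 of the 21 without such an overlap. The same shares over all tested genes were not computed, so nothing is read from these counts. The lower genes free of any such overlap were POLR1E, DDX21, WDR43, NOP2, RRS1 and RRP1B.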

How the data were processed

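RNA was sequenced from 3 si-NC and 3 si-SNHG17-1 libraries of cells labelled Hep3B, grouped by title. The authors deposited raw counts per gene, whole numbers without normalisation. The submitters' processing notes name HISAT2 and the build GRCh38, without a version. The counting program, its use of strand, the annotation release and the siRNA sequences are absent from the sources used here. The 50 genes and the 140 other pathway genes were chosen with earlier results of these data known.

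Counts were analysed with edgeR 4.0.16 in R 4.3.3. filterByExpr (minimum count 10, minimum total 15) left 18679 genes. TMM factors, the quasi-likelihood F test without a replicate block and Benjamini-Hochberg adjustment over all tested genes followed, with a call at an adjusted p under 0.05. CPM is TMM-scaled. The SE was taken as the size of the log2 fold change over the root of the F statistic. Deviations by library used log2(CPM + 0.5). The script was tested on simulated data. Alternatives were median-of-ratios and total-count scaling, other filters, DESeq2 1.42.0, limma-voom 3.58.1, a replicate block and leaving out each library.

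Values by library are given for each called gene and, in roles without one, for the gene with the smallest adjusted p. Values of other members were added after they were seen. Of the other pathway genes up to 3 called ones per step and direction, with the smallest adjusted p, are named. Exonic lengths, overlaps, hosted snoRNAs and 3′ UTRs came from GENCODE release 29, possibly not the release used for counting, and promoter windows came from RefSeq (GRCh38.p14). The values of 1 cell identity marker are not reported here.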

Additional observations from a re-analysis of the deposited data

How the results depend on the processing

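The fold changes of the 17 lower genes, TAF1A, NOP58 and SNHG17 kept their sign under every alternative run. Of the 50 genes 0 were called higher under any of them. The edgeR analysis had 17 lower genes, with 5.21% of all genes tested lower. The share of all genes lower is given in brackets for each alternative. Median-of-ratios size factors gave 17 (5.11%), total counts 12 (4.18%) and no filter on low counts 10 (2.08%). A minimum of 1 CPM in 3 libraries gave 18 (6.59%), DESeq2 22 (8.29%) and limma-voom 18 (5.38%). All 17 were among those called by median-of-ratios scaling, the 1 CPM filter, DESeq2 and limma-voom. DESeq2 added NCL, NOP58, UTP15, BRIX1 and GNL2. The median log2 fold change of the 50 genes was −0.30 with total counts and ran from −0.33 to −0.28 with a library left out. Leaving out a library gave 5 to 12 lower members, 2 to 16 lower and 1 to 3 higher genes among the 140 others. DESeq2 called 29 of those 140 lower, beside 8.29% of all genes it tested. The causes of these differences were not tested, but each fit with a library left out has fewer samples.

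The groups share replicate numbers. Same-numbered libraries did not deviate together (correlations over genes of −0.03, −0.05 and −0.05), so the number was not taken as a pairing. With the replicate block, which called 1.39% of all genes lower, 3 members (POLR1C, DDX21 and RRP1B) and 3 of the 140 other genes were lower and 1 of the 140 was higher, and SNHG17 had an edgeR adjusted p of 0.0238.

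Limits: with 3 libraries a group, 12 of the 17 calls were lost when at least 1 of the libraries was left out. Counts of overlapping genes, of NPM1 and RRN3 with their pseudogenes, and of PPAN and PPAN-P2RY11 are uncertain. Only 1 siRNA was used, and the hepatocyte markers were near 0. RNA levels do not give protein levels or rates of ribosome production.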

Other observations

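Some reads were counted on genes of 5.8S ribosomal RNA, and they are not a measure of ribosome output. The table lists 4 near-identical genes of 5.8S ribosomal RNA on chromosome 21, whose reads cannot be told apart, and they were looked at after their values were seen. Summed, they stood at 13.7, 5.94 and 9.15 CPM with si-NC and at 3.53, 4.08 and 4.07 CPM with si-SNHG17-1. The means were 9.61 ± 3.92 and 3.90 ± 0.314 CPM (SD, n = 3), without overlap, and the exact two-sided permutation test gave p = 0.1, the smallest possible. Taken singly, 2 of the 4 passed the edgeR test (adjusted p = 0.0421 and 0.0489), and each lost the call in 5 of the 6 fits with a library left out. The sources used here do not say how ribosomal RNA was treated in library making.

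The ratios of partners within a complex are given as a description, with no test, since the 3 pairs were chosen after their values were seen. POLR1C to POLR1D was 0.866, 0.744 and 0.819 with si-NC and 0.410, 0.478 and 0.493 with si-SNHG17-1. BOP1 to PES1 was 1.06, 1.00 and 1.12 against 0.937, 0.877 and 0.821. All 3 pairs set a called gene against a partner that was not called. NHP2 to GAR1 overlapped, with a mean of 4.63 ± 1.31 against 3.55 ± 0.288 (SD, n = 3).

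The word TCAATC was taken from an earlier analysis of these data, in which 3′ UTRs holding it were more often those of lower genes. Among 2648 tested protein-coding genes with TCAATC in the 3′ UTR, 10.1% were lower, against 5.57% of 10984 without it. Since the word came from the same data, this contrast is no separate support for it. The longest 3′ UTR of each gene was searched, and its length was not taken into account. Of the 50 ribosome biogenesis genes 8 held it and 3 of these were lower (37.5%), against 14 of the 42 others (33.3%). The median log2 fold change was −0.18 for the 8 and −0.35 for the 42, so the share and the median point in opposite directions. TCAATCA was in the 3′ UTR of POLR1A, POLR1C, POLR1D and RRP1B. POLR1C and RRP1B were lower, and POLR1A and POLR1D were not called. Over tested protein-coding genes 14% of the 1110 with TCAATCA were lower, against 5.79% of those without it. The sites, written 5′ to 3′ on the transcript strand in DNA letters with the word in capitals, are shown to compare these 4 genes. In POLR1A the capitals mark the longer word TTCAATCA, while the position is where TCAATCA begins within it.
POLR1C, base 483 of a 3′ UTR of 1068: gttttccaggTCAATCAgactcaa
RRP1B, base 323 of 2696: gaactttaaaTCAATCAgtgctgc
POLR1A, base 3908 of 7207: gggctgtgtTTCAATCAgatgttg
POLR1D, base 1428 of 4342: ttggccactgTCAATCActtaagg
The part of the siRNA's own sequence in these results was not tested, since no source used here gives that sequence.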
